A study of Mus musculus with 6 samples.

Results

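The transcriptome described here is that of LKPR EPCAM+ cells, a tumour line established from squamous carcinoma of mouse skin, in its control state with an empty vector. The 2 libraries labelled empty vector were taken, out of 6 in the series, and every gene of the table was ranked by the mean of the 2. The other 4 libraries carry knock-downs of Ntn1 or Unc5b and were not used. The genotype on the labels includes Lgr5CreER, p53fl/fl and Rosa26-YFP+/+. These are a Cre recombinase driven from Lgr5, a gene of hair follicle stem cells, floxed Trp53 and a yellow fluorescent reporter. The cells are a single line, so other tumours are not represented. All cells also carried the control lentiviral plasmid TRC1 and had been put through a puromycin test. They were cultured for 6 days in medium with serum and hydrocortisone, and living single cells positive for both YFP and EPCAM were then sorted. Libraries were made with the Ovation Solo system. The study concerns netrin-1 and EMT, the epithelial-to-mesenchymal transition. The labels do not say whether the pair came from separate cultures or transductions, so the spread between them may be technical. With 2 libraries of 1 group there is no test, and none was run. Every pair of values below is library 1 and then library 2.

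Squamous carcinomas of the skin arise from stratified epithelium, whose basal cells make the keratin pair KRT5 and KRT14 and whose upper layers switch to KRT1 and KRT10 and build a cornified envelope. KRT8 and KRT18 are the keratin pair of simple, single-layered epithelia. In EMT, carcinoma cells lose E-cadherin (Cdh1), EPCAM and tight junctions under transcription factors of the SNAI, TWIST and ZEB families, and intermediate states that keep part of the epithelial program are known in this tumour type.

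Levels are given on 2 scales. Deposited values are whole numbers scaled to about 20 M (M for 1e6) per library, and they grow with gene length. Per-length levels, written as TPM, transcripts per 1 M, are the deposited values divided by the exon length in kb and scaled so that the nuclear protein-coding genes sum to 1 M. A gene was called high at 100 TPM or more, moderate from 10 TPM and low from 1 TPM, and below that trace or listed at 0. The estimated depth was 10.2 and 8.75 M reads, and 3 reads, the limit that a count of 0 allows, correspond to deposited values of 5.90 and 6.86. In bulk RNA of this kind, fewer cells that express a gene and less RNA per cell cannot be told apart.

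The carcinoma markers were all high. Epcam, the adhesion molecule used for the sort, stood at 879 and 1034 TPM and ranked 87 of the 21721 nuclear protein-coding genes. The sort selected for it, so its level is given only as a check of the label. Cdh1 stood at 392 and 447 TPM, rank 349. Krt14 stood at 535 and 234 TPM, rank 396, and so differed more between the libraries than the others. Markers of other cell types were mostly near 0. None of the 13 fibroblast markers had a mean of 10 TPM, a level reached by 43.8% of all nuclear protein-coding genes. Dcn, Dpt and Thy1 were listed at 0, and their summed level was 7.51 and 13.4 TPM. Of 9 endothelial markers none reached 10 TPM and 4 were at 0, as were 30.6% of all nuclear protein-coding genes. Among 21 immune markers 12 were at 0 and Ptprc, the pan-leukocyte gene, had a deposited value of 2 in each library. The 3 immune markers with a mean above 10 TPM were Csf1r at 50.5 and 63.6 TPM, Cd14 at 18.6 and 19.2 TPM, and Cd68 at 15.5 and 4.83 TPM. Of 11 melanocyte and nerve markers Mlana, Dct and Tyrp1 were among those at 0, whereas Mitf stood at 58.6 and 43.1 TPM and Mbp at 39.1 and 35.4 TPM.

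Trp53 and Lgr5, loci that the genotype alters or draws on, were both read. Trp53, from the floxed locus, was still listed at 18.5 and 14.3 TPM, and the table does not separate the floxed exons from the rest. Lgr5, whose locus drives the Cre recombinase, was close to the low limit in library 1 and clearly above it in library 2, at 1.01 and 7.62 TPM (deposited 43 and 322).

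Of 49671 listed genes 24399 (49.1%) were at 0 in both libraries, and another 5317 were above 0 but under the 3-read value in both. A mean deposited value of 20 or more was reached by 15176 genes (30.6%). Among nuclear protein-coding genes 2432 were high, 7073 moderate, 2712 low, 2866 trace and 6638 at 0, so that 9505 (43.8%) reached 10 TPM. The 100 highest genes held 16.8 and 17.5% of the deposited total.

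The highest protein-coding levels, apart from ribosomal proteins and mitochondrial genes, belonged to cytoskeleton, translation, secreted matrix and simple epithelial genes. Actb, cytoplasmic actin, led with 9579 and 9180 TPM. Translation factors followed, with Eef1a1 at 7602 and 8777 TPM and Eef2 at 2825 and 3170 TPM. Spp1, the secreted phosphoprotein osteopontin, was next to them at 5314 and 5146 TPM. Thbs1, the matrix glycoprotein thrombospondin, stood at 2942 and 3717 TPM. The chaperone Hsp90ab1 had 4585 and 4062 TPM and the tubulin Tubb5 2605 and 2016 TPM. S100a11, a calcium-binding protein, stood at 2492 and 2669 TPM, and Wfdc2, a secreted protease inhibitor of glandular epithelia, at 1691 and 2323 TPM. The nuclear chaperone Npm1 (2272 and 2027 TPM), prothymosin Ptma (2285 and 2083 TPM), the histone gene Hist2h2bb (2477 and 2108 TPM) and the gene model Gm20721 at the Gnas locus (2611 and 2925 TPM) were also among the first 15. The keratins Krt8 and Krt18 completed them. Ribosomal protein genes had a median of 549 TPM over 97 with a mean of 20 or more, with Rplp0 the highest at 2872 TPM.

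The simple epithelial pair Krt8 and Krt18 exceeded every other keratin in both libraries, and Krt14 was the highest keratin of stratified epidermis by mean level. Krt8 stood at 2156 and 1888 TPM and its partner Krt18 at 1637 and 1917 TPM. Krt7, another keratin of simple epithelia, stood at 552 and 526 TPM and Krt19 at 154 and 163 TPM. The basal partners were unequal, since Krt5 was only at 31.4 and 35.4 TPM beside the Krt14 level given above. Krt15, a keratin of basal and bulge cells, was at 2.72 and 5.64 TPM, and Krt17 at 8.83 and 6.42 TPM. The wound keratin Krt16 stood at 153 and 41.9 TPM, while Krt6a, with which it pairs, had 1.39 and 0.704 TPM. Of the suprabasal keratins, Krt10 was at 6.48 and 8.39 TPM and Krt1 at 0, and Krt13, of stratified mucosa, at 6.2 and 16.8 TPM. In all, 16 of 27 type I and 6 of 23 type II keratins were listed at 0, beside 30.6% of all nuclear protein-coding genes. Krt2, Krt72, Krt82, Krt83 and Krt84 were the type II genes at 0 beside Krt1, and the remaining type II keratins above 10 TPM were Krt80 (47.6 and 32.8 TPM) and Krt76 (20.8 and 37.0 TPM).

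**Figure D1:**
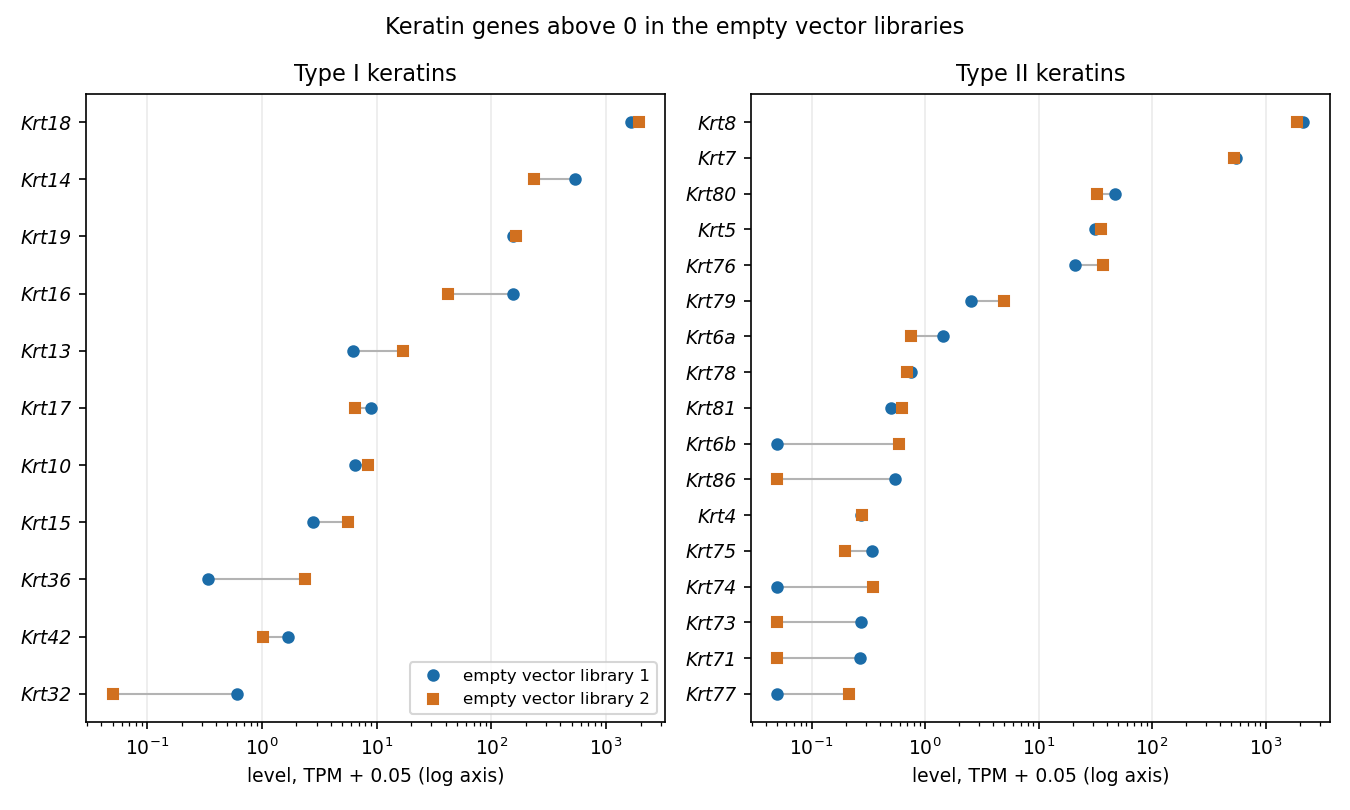
Per-length levels of the type I and type II keratins above 0 in either library, in TPM plus 0.05 on a log axis, with a circle for library 1, a square for library 2 and a line joining them. Krt8 and Krt18 lie at 1637 TPM or more, Krt14 and Krt16 are higher in library 1 by at least 2-fold, and keratins listed at 0 in both libraries are not drawn.

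The promoters of 4 keratins are shown because these keratins span the range from near the top of the transcriptome (Krt8, Krt18) through a moderate level (Krt5) to a low one (Krt10). The windows run from 250 bases before the RefSeq gene start to 50 after it on GRCm38, read 5′ to 3′ on the gene's strand. Krt8 is at chr15:102004293-102004592 on the minus strand, Krt18 at chr15:102027966-102028265 on the plus strand, Krt5 at chr15:101712856-101713155 on the minus strand and Krt10 at chr11:99389315-99389614 on the minus strand. Capitals mark matches, on either strand, to TATAAA, the core of a TATA box, or to GGGCGG, the core of the GC box.
Krt8: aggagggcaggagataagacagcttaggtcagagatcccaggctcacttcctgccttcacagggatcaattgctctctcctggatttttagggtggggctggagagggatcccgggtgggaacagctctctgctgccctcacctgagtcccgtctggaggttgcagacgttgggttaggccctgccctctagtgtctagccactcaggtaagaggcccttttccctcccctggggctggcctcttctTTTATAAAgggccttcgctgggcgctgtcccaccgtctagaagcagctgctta
Krt18: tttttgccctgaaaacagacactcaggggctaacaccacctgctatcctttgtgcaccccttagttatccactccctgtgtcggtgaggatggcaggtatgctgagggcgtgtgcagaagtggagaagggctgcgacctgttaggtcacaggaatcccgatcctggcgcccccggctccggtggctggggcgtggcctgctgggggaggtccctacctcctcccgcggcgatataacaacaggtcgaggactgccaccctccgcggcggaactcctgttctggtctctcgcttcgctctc
Krt5: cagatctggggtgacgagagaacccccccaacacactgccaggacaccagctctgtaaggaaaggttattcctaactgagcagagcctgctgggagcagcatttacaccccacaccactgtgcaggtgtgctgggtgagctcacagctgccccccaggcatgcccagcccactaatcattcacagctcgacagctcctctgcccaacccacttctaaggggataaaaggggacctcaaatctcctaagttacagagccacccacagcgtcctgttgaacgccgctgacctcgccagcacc
Krt10: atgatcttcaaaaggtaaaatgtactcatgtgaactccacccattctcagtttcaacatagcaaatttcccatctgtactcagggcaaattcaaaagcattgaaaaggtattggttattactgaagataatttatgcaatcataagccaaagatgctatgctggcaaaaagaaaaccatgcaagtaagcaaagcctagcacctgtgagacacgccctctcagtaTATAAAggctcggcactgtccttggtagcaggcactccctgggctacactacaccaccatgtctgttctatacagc
In these windows Krt8 had 6 CpG dinucleotides, Krt18 had 17, Krt5 had 6 and Krt10 had 2. TATAAA was present in Krt8, where a match on each strand overlapped the other, and once in Krt10, and GGGCGG was present in none of the 4. Over 13519 protein-coding genes with a single promoter in the table, TATAAA was found in 13.7% and GGGCGG in 47.2%. GGGCGG was found in 73.3% of 1503 high genes, 70.1% of 4329 moderate, 51.6% of 1567 low, 38.4% of 1695 trace and 17.7% of 4425 genes at 0. TATAAA went the other way, with 7.19% of high genes and 25.1% of genes at 0. The median CpG number per window was 24 for high genes and 3 for genes at 0, so Krt8 had fewer CpG than the median of its level class, as had Krt18. These are matches of letters, described across genes, and the table does not measure binding.

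Genes of the cornified envelope and of late differentiation were not high in these cells. None of 29 was at 100 TPM and 6 were moderate, beside 11.2 and 32.6% of all nuclear protein-coding genes. Those at 0 were 8, namely Sprr2d, Sprr3, Flg, Flg2, Krtdap, Klk5, Casp14 and Calml3. That is near the share of all nuclear protein-coding genes at 0 (30.6%). The envelope scaffolds Ppl (93.8 and 93.4 TPM) and Evpl (33.3 and 24.1 TPM) and the cross-linking enzyme Tgm1 (77.6 and 65 TPM) were the upper end. The main envelope proteins were low, with Ivl at 3.25 and 4.68 TPM and Lor at 3.51 and 2.19 TPM. Ly6d, a surface protein of keratinocytes, differed between the libraries, at 10.0 and 47.7 TPM.

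Junction genes were present in an incomplete set. Cdh1 came with its cytoplasmic partners Ctnnb1 at 808 and 1156 TPM, Ctnna1 at 457 and 575 TPM and Ctnnd1 at 411 and 467 TPM. P-cadherin, Cdh3, a basal keratinocyte gene, stood at 140 and 119 TPM. N-cadherin, Cdh2, which mesenchymal cells use, was at 1.28 and 2.95 TPM, and the mesenchymal filament gene Vim at 29.5 and 56.5 TPM. Among 16 desmosome genes the cytoplasmic plaque was well represented, with Jup at 269 and 302 TPM, Pkp4 at 174 and 132 TPM, Pkp1 at 141 and 130 TPM and Dsp at 136 and 120 TPM. Perp, a membrane protein of desmosomes, stood at 349 and 296 TPM. The desmosomal cadherins were low or missing. Dsg2 stood at 4.79 and 2.88 TPM, Dsc2 at 2.23 and 2.21 TPM and Dsg3 at 0.551 and 0.313 TPM, and Dsc1, Dsc3, Dsg1a, Dsg1b, Dsg1c and Dsg4 were listed at 0.

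Tight junction genes were led by claudins. Cldn4 stood at 1036 and 1090 TPM, Cldn3 at 779 and 929 TPM, Cldn6 at 420 and 443 TPM and Cldn7 at 235 and 227 TPM. The epidermal claudin Cldn1 was at 4.76 and 8.48 TPM, below all of these in both libraries. The scaffold Tjp1 had 320 and 289 TPM and occludin (Ocln) 29.2 and 31.6 TPM. Of the 28 genes of this list 15 reached 10 TPM, beside 43.8% of all nuclear protein-coding genes.

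Among matrix attachment genes the β1 and α3 integrins were the highest. Itgb1 stood at 1242 and 1584 TPM and Itga3, its laminin-binding partner, at 1182 and 1149 TPM. The hemidesmosomal pair Itga6 (229 and 184 TPM) and Itgb4 (142 and 130 TPM) was high, as were Plec (302 and 210 TPM), Lama5 (464 and 488 TPM) and Lamb1 (209 and 222 TPM). The laminin chain genes Lama3 and Lamb3, expressed by basal keratinocytes, stood at 96.0 and 68.1 TPM and at 104 and 83.6 TPM. Col17a1, the hemidesmosomal collagen, was low at 1.16 and 1.09 TPM. Itgb6, an epithelial integrin of wounds and carcinomas, stood at 49.9 and 48.3 TPM, whereas Itgb3 was at 0.244 and 0.0824 TPM.

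Epithelial regulators and some EMT factors were expressed side by side. The epithelial splicing factors Esrp1 and Esrp2 stood at 157 and 161 TPM and at 60.3 and 66.2 TPM. Among epithelial transcription factors Klf4 had 173 and 129 TPM, Elf3 92.8 and 104 TPM and Grhl2 72.9 and 70.1 TPM. Trp63, the master regulator of stratified epithelium, was low at 2.69 and 2.78 TPM. Of 19 genes in the EMT factor list 11 reached 10 TPM, as did 10 of 23 in the epithelial list, beside 43.8% of all nuclear protein-coding genes. Snai1 stood at 49.8 and 52.5 TPM, Twist2 at 91.6 and 103 TPM, Twist1 at 25.8 and 42.0 TPM and Prrx1 at 59.2 and 69.5 TPM. The ZEB factors and Snai2 were much lower, with Zeb1 at 0.608 and 0.923 TPM, Zeb2 at 3.60 and 3.90 TPM and Snai2 at 1.19 and 3.25 TPM. Sox9, a factor of hair follicle stem cells and skin carcinoma, led the list with 380 and 305 TPM, followed by Tcf3 (143 and 125 TPM) and Foxc1 (98.1 and 138 TPM), while Gsc and T were at 0. Sox4 (180 and 172 TPM) and Sox11 (71.6 and 90.3 TPM) were also expressed, and Sox2 was at 0. In the epithelial list Hnf4a was at 0 and Tfap2c had deposited values of 2 and 0.

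**Figure D2:**
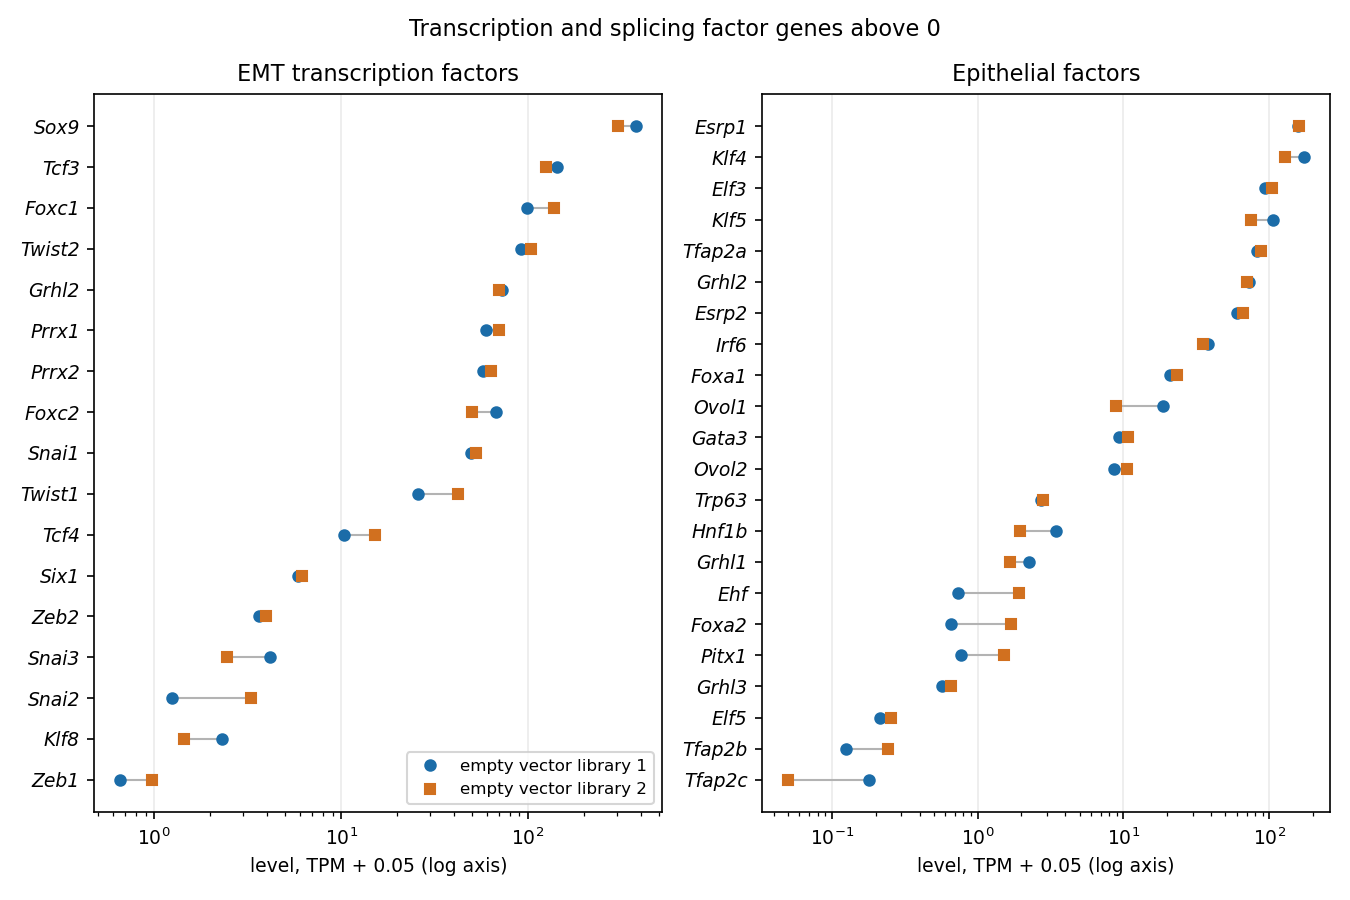
Per-length levels of epithelial and EMT transcription and splicing factors above 0 in either library, in TPM plus 0.05 on a log axis, with a circle for library 1 and a square for library 2. Snai1, Twist1 and Twist2 lie at 25.8 TPM or more, and Zeb1, Zeb2 and Snai2 at 3.90 TPM or less, in each library.

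Among surface markers used to grade EMT states, Cd24a stood at 561 and 546 TPM and Cd44 at 499 and 508 TPM. Nt5e, the ectoenzyme CD73, had 87.3 and 85.7 TPM, Vcam1 was at 0.0542 and 0.192 TPM, and Cd34 was at 0.

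The netrin system was expressed in part, with 5 of 17 genes of its list at 10 TPM or more, beside 43.8% of all nuclear protein-coding genes. Ntn1 stood at 59.9 and 100 TPM (deposited 1566 and 2588) and its dependence receptor Unc5b at 58.6 and 61.1 TPM (deposited 1527 and 1573). The receptor neogenin, Neo1, was the highest of the list at 114 and 136 TPM, and Rgma, a ligand of neogenin, stood at 16.4 and 18.5 TPM. Ntng1, Unc5a, Unc5d, Dcc, Dscam and Dscaml1 were listed at 0, and Unc5c was at 0.464 and 1.89 TPM. The highest genes of the semaphorin, plexin and neuropilin list exceeded the netrin genes and receptors above. Of its 31 genes 12 reached 10 TPM, beside 43.8% of all nuclear protein-coding genes. The receptor Plxnb2 stood at 474 and 416 TPM, and the ligands Sema3c at 306 and 390 TPM and Sema3f at 146 and 208 TPM. The co-receptor Nrp2 was similar in both libraries at 130 and 136 TPM, but Nrp1 was at 35.3 and 122 TPM.

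Growth factor or receptor genes of several families were expressed. Among EGF receptor ligands Ereg, epiregulin, stood at 250 and 82.4 TPM, Areg, amphiregulin, at 98.6 and 39.4 TPM and Hbegf at 82.8 and 104 TPM. The receptors Erbb2 (86.9 and 96.1 TPM) and Erbb3 (65.3 and 89.0 TPM) were above Egfr (6.38 and 6.57 TPM), and Erbb4 and Nrg3 were at 0. Of the FGF receptors Fgfr1 had 102 and 152 TPM and Fgfr2, the keratinocyte receptor, 6.35 and 8.82 TPM. Only Fgfr1 of the 19 FGF receptor and ligand genes reached 10 TPM, beside 43.8% of all nuclear protein-coding genes, and 7 were at 0. In the Wnt family the ligands Wnt10a (263 and 236 TPM) and Wnt7b (205 and 188 TPM) and the receptor Fzd6 (113 and 166 TPM) were the highest. Hes1, a Notch target, stood at 825 and 854 TPM, Notch2 at 162 and 141 TPM, Notch1 at 13.4 and 10.8 TPM, and the feedback gene Nrarp at 116 and 78.1 TPM. Bmpr1a (186 and 198 TPM), Bmp1, a procollagen protease (136 and 186 TPM), and Bmpr2 (94.8 and 127 TPM) led the TGF-β and BMP genes.

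RAS and cell cycle genes were almost all expressed. Of them 28 of 30 and 27 of 28 reached 10 TPM, beside 43.8% of all nuclear protein-coding genes. Cdkn2a, the locus of the cell cycle inhibitors p16 and p19, was the highest of the RAS and p53 list at 451 and 757 TPM. The ERK feedback phosphatases Dusp4 (325 and 481 TPM) and Dusp6 (230 and 254 TPM) followed it, and Nras stood at 255 and 235 TPM. The p53 targets were unequal, with Cdkn1a at 13.5 and 7.18 TPM and Mdm2 at 77.7 and 75.8 TPM, and Trp73 was at 0. Pcna (769 and 535 TPM), Top2a (481 and 499 TPM) and Mcm6 (512 and 338 TPM) led the cell cycle list, and Mki67 had 386 and 287 TPM. Myc stood at 373 and 292 TPM. Immediate early genes were also high, 12 of 18 at 100 TPM or more, beside 11.2% of all nuclear protein-coding genes. Ier3 (1654 and 757 TPM), Junb (864 and 762 TPM) and Egr1 (715 and 852 TPM) were first.

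Proteolysis genes were led by the plasminogen activator Plau at 1167 and 1606 TPM, with S100a10 at 645 and 728 TPM, its partner Anxa2 at 508 and 381 TPM, and the receptor Plaur at 109 and 68.2 TPM. Of the metalloproteinases only the membrane enzyme Mmp14 was high, at 195 and 244 TPM. The inhibitors Timp2 (703 and 900 TPM) and Timp3 (356 and 516 TPM) exceeded it in both libraries. Basement membrane collagens Col4a1 (409 and 391 TPM) and Col4a2 (354 and 301 TPM) and Col8a1 (200 and 303 TPM) led 26 collagens, whereas the fibrillar Col1a1 was at 0.659 and 1.00 TPM.

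Immune signals were uneven. The neutrophil chemokine Cxcl1 stood at 1926 and 1127 TPM, Cxcl16 at 413 and 497 TPM and Cxcl5 at 122 and 108 TPM. Of 33 chemokines 14 were at 0, beside 30.6% of all nuclear protein-coding genes. Il1a, a keratinocyte cytokine, stood at 152 and 111 TPM and Il1b at 1.26 and 1.15 TPM, and the receptors Il18r1 (63.1 and 43.7 TPM) and Il1r1 (41.0 and 43.8 TPM) were the next of that family. The class I antigen presentation genes B2m (1381 and 1773 TPM), Tapbp (387 and 496 TPM) and H2-K1 (239 and 232 TPM) were high. Of the 18 genes of the antigen presentation list 8 reached 10 TPM (44.4%), near the 43.8% of all nuclear protein-coding genes. The immunoproteasome subunit Psmb8 was low at 1.70 and 1.94 TPM, and the class II genes H2-Aa, H2-Ab1 and H2-Eb1 were at 0.

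Metabolic and stress genes were broadly expressed. Of 29 antioxidant genes 24 reached 10 TPM, beside 43.8% of all nuclear protein-coding genes. They were led by Txn1 (770 and 712 TPM), Aldh3a1 (727 and 753 TPM) and Prdx1 (650 and 672 TPM). Nfe2l2, the transcription factor NRF2, stood at 524 and 513 TPM, and Nqo1, a widely used target of it, was at 1.24 and 1.41 TPM. The activity of NRF2 was not measured. Glycolysis was led by Pkm (1172 and 879 TPM), Ldha (821 and 561 TPM) and Gapdh (693 and 597 TPM). All 19 heat shock genes reached 10 TPM, beside the same 43.8%. Among transport genes the water channel Aqp5 (126 and 151 TPM) and the protease St14 (104 and 103 TPM) were high. Over the lists as a whole 374 of 794 distinct genes reached 10 TPM, and 146 were at 0. The lists were assembled for this tissue, so that share is not comparable with that of all genes.

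**Figure D3:**
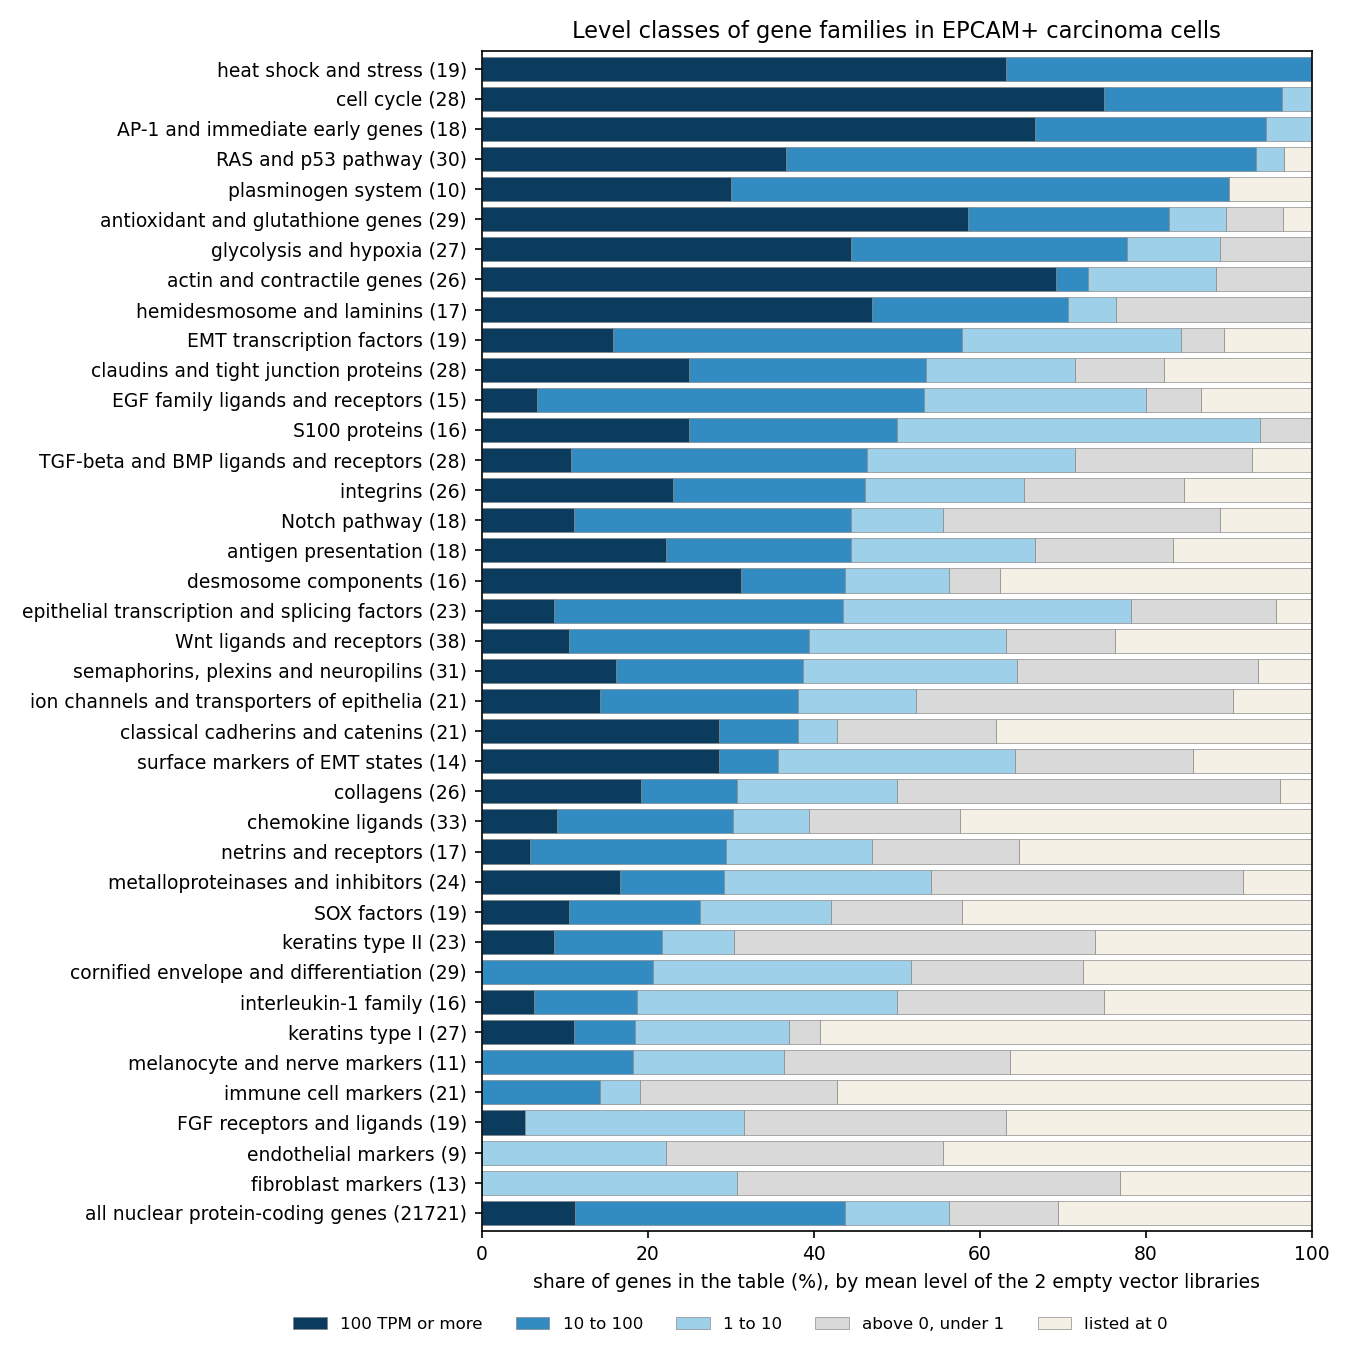
Share of each gene list in the 5 level classes, in percent of its members in the table, by mean TPM of the 2 libraries. Cell cycle, heat shock and immediate early lists have no member at 0, whereas type I keratins and immune markers are mostly at 0.

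The 2 libraries were alike in their broad levels and differed in a minority of genes. Over the 15176 genes with a mean of 20 or more, log2(value + 5) correlated with a Pearson r of 0.979 across genes, which are not independent replicates. The difference of library 2 minus library 1 on this scale had a median of 0.02 and an SD of 0.48, and such differences understate those of low genes. At least 2-fold higher in library 2 were 611 genes (4.03%), and at least 2-fold higher in library 1 were 192 genes (1.27%). Together these are 803 genes (5.29%), of which 574 were also more than 3 counting SDs apart, with a counting SD taken from the estimated depth. Over all 15176 genes, at any fold, 4342 (28.6%) were more than 3 counting SDs apart. At least 4-fold apart were 67 genes, all of them higher in library 2. The share at least 2-fold apart fell with level, from 14.2% at a mean of 20 to 50 to 0.701% at 3000 and above. The share more than 3 counting SDs apart, at any fold, rose instead, from 4.93% to 64.1% over the same range. The summed marker levels of other cell types were 7.51 and 13.4 TPM for fibroblasts, 87.1 and 90.9 TPM for immune cells, 5.67 and 5.39 TPM for endothelium and 103 and 86.3 TPM for melanocytes and nerve, and their part in these differences was not tested.

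**Figure D4:**
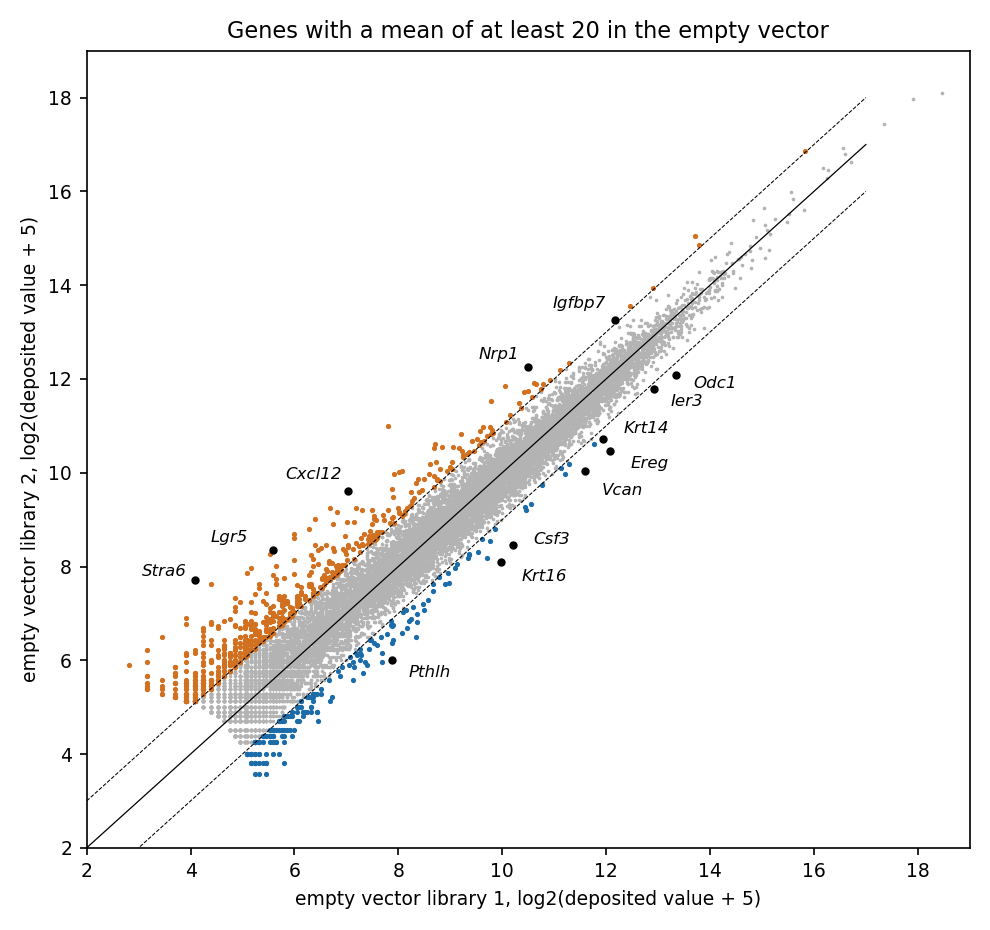
Deposited values of the 15176 genes in library 1 (x axis) and library 2 (y axis), both as log2(value + 5), each point 1 gene. Dashed lines mark 2-fold, genes beyond them are orange (higher in library 2) or blue (higher in library 1), and black points are named. More genes lie above the band (611) than below it (192), and most of both groups lie at low values.

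The genes furthest apart towards library 2 were of varied kinds, and many were low in library 1. The furthest apart at a mean of 100 or more was Stra6, the retinol transporter, at deposited values of 12 and 204, a log2 difference of 3.62. The retinal reductase Dhrs3 had 59 and 386. Lgr5 had deposited values of 43 and 322 (log2 difference 2.77). The transcobalamin gene Tcn2 had 31 and 247, the iron exporter Slc40a1 98 and 599 and the chemokine Cxcl12 126 and 777. Further deposited values in the first 15 were Galnt15 16 and 192, Mmp15 29 and 226, Klhdc7a 41 and 302, Cd33 59 and 409, Rbms3 79 and 514, Ctla2a 73 and 439, Inhbb 45 and 254 and Btn1a1 108 and 572. In each of these genes the library 2 value was more than 5 times the library 1 value.

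Of 491 list members with a mean of 20 or more, 37 were at least 2-fold higher in library 2, beside 4.03% of all genes, and 20 in library 1, beside 1.27% of all genes. Wnt genes gave 4 of 22 higher in library 2, beside the same 4.03%, and 1 higher in library 1, the ligand Wnt16 (2.26 and 0.78 TPM). Those higher in library 2 were Lgr5, the receptor Fzd1 (25.2 and 62.3 TPM), the stem cell receptor Lgr6 (20.5 and 64.5 TPM) and the ligand Wnt9a (1.73 and 9.86 TPM). In a list of Wnt target genes that was added after the values had been seen, Axin2 stood at 3.45 and 15.2 TPM, Notum, an extracellular Wnt inhibitor, at 41.6 and 120 TPM and Tcf7 at 0.732 and 4.26 TPM. That list was not uniform, with 4 of 14 genes apart, a median log2 difference of 0.20 and Sp5 at 0. Of 20 TGF-β and BMP genes with a mean of 20 or more, 3 were at least 2-fold higher in library 2 and none in library 1, with a median log2 difference of 0.23. The 3 were the ligand genes Bmp4 at 10.3 and 28.7 TPM, Bmp7 at 19.8 and 46.0 TPM and Inhbb, an activin subunit, at 2.54 and 14.5 TPM. The sodium channel subunit Scnn1a stood at 23.7 and 86.8 TPM, the collagens Col4a5 at 16.2 and 54.3 TPM and Col5a1 at 9.22 and 26.7 TPM, and Spry1, an inhibitor of RAS signalling, at 34.3 and 131 TPM. Of 12 metalloproteinase genes with a mean of 20 or more, 4 were at least 2-fold higher in library 2, including Mmp13 (8.98 and 21 TPM), and Mmp9 was higher in library 1 (9.09 and 2.95 TPM).

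The genes furthest apart towards library 1 included growth factors, cytokines and the wound keratin. Pthlh, the parathyroid hormone-related peptide of squamous tumours, was first, with deposited values of 230 and 59 and a log2 difference of -1.88. Krt16 had 998 and 270 (-1.87 on the log2 scale). The neutrophil growth factor Csf3 had 1171 and 345, and the chemokine Cxcl2 202 and 57. Ereg had deposited values of 4304 and 1399, and Areg (log2 difference -1.32) and Nrg1 (-1.22) went with it, so that 3 of 11 EGF family genes with a mean of 20 or more were at least 2-fold higher in library 1, beside 1.27% of all genes. The other members were closer, 5 of the 11 were higher in library 2, and the list's median log2 difference was -0.04. The proteoglycans Vcan (3070 and 1038) and Acan (322 and 107), the transporter Nipal1 (829 and 284) and the transcription factor Myb (263 and 91) were also in the first 15 by deposited value. The remaining ones were Gm42532 (318 and 85), P2ry12 (155 and 48), Gm42679 (200 and 66), Gm22748 (230 and 78), Rmi2 (163 and 55) and Dagla (281 and 98). Fosl1, an AP-1 subunit, stood at 281 and 120 TPM, Ier3 as above, and Serpinb2, a plasminogen activator inhibitor, at 16.3 and 5.90 TPM. These genes were fewer than those higher in library 2, and none reached 4-fold.

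Small differences towards library 1 were shared by all genes of the S phase and ribosome biogenesis lists, which were added after the values had been seen. Of 39 genes of S phase and replication licensing, all were higher in library 1, with a median log2 difference of -0.61 and a range from -1.42 to -0.10. Their summed level was 6221 and 4100 TPM. Of 40 ribosome biogenesis genes all were higher in library 1, with a median log2 difference of -0.52 and a summed level of 8146 and 6081 TPM. Mitosis genes did not share this, with 16 of 30 higher in library 2, a median log2 difference of 0.03 and a summed level of 4513 and 4716 TPM. The cell cycle list, which was not among those added later, was mixed. In it 20 of 28 genes were higher in library 1 and 8 in library 2, with a median log2 difference of -0.31. The cell cycle list shares genes with the added ones, among them Pcna and Mcm6 (S phase) and Top2a (mitosis), and so is not separate from them. Over all genes with a mean of 20 or more, 47.2% were higher in library 1. The S phase, ribosome biogenesis and mitosis lists were put together after the values had been seen, so any uniformity in them is a description. Most single genes in them were under 2-fold, apart from Ccne1, the S phase cyclin (32.1 and 11.9 TPM), and the replication licensing factor Cdc6 (log2 difference -1.23) of the S phase list and Rrp12 (deposited 1405 and 583) of ribosome biogenesis. Odc1, the first enzyme of polyamine synthesis, had deposited values of 10455 and 4358, a log2 difference of -1.26.

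**Figure D5:**
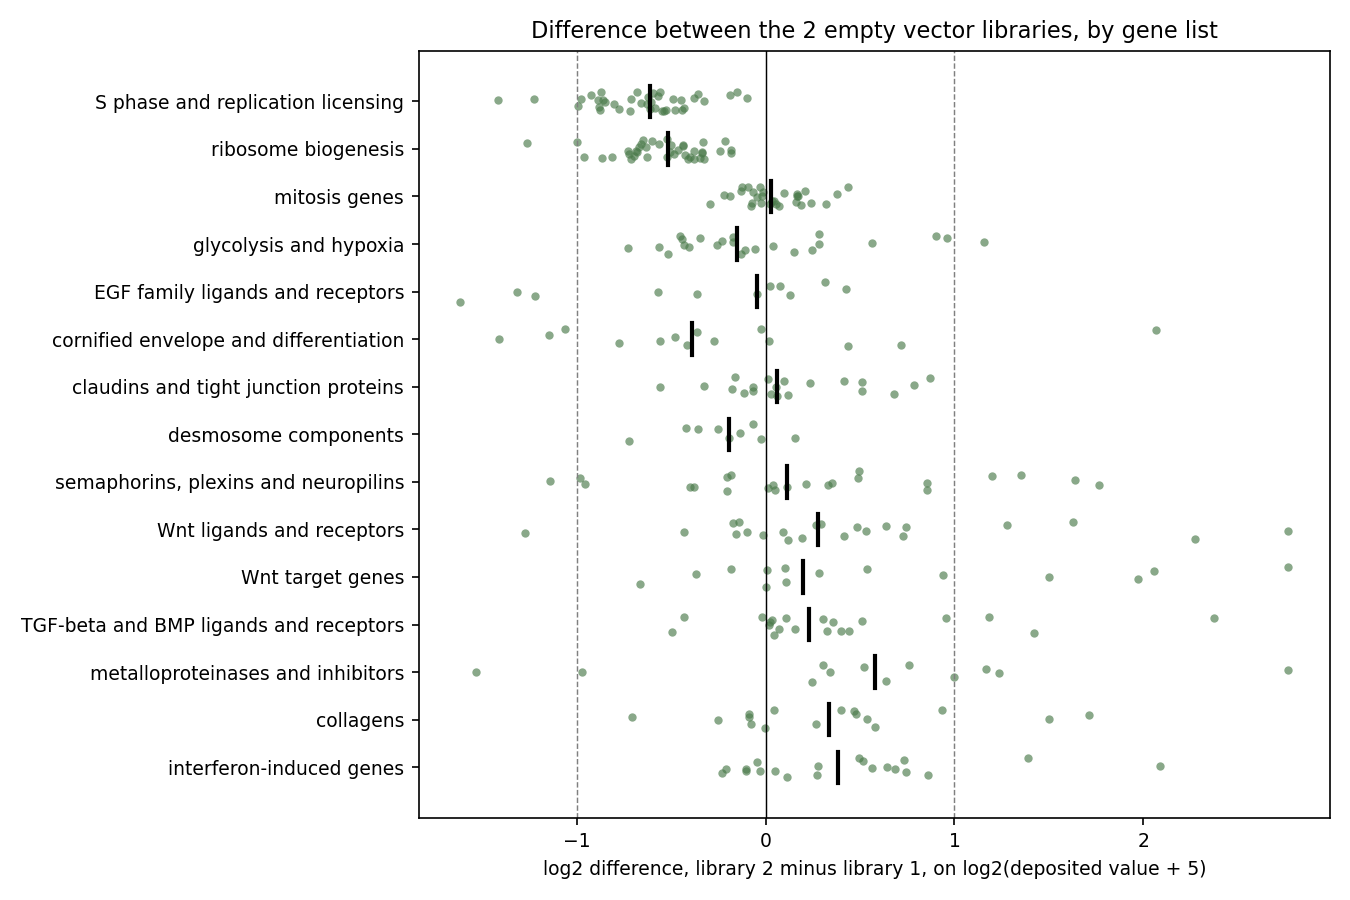
Log2 difference of library 2 minus library 1 for members of 15 gene lists, with dashed lines at 2-fold, each point 1 gene with a mean deposited value of 20 or more and the bar the list median. The S phase and ribosome biogenesis points all lie below 0, and the mitosis points lie on both sides of it.

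Junction genes were mostly under 2-fold apart, as were most genes (5.29% of all with a mean of 20 or more were apart). None of 20 tight junction genes was 2-fold apart, with 13 higher in library 2 and a median log2 difference of 0.06. None of 9 desmosome genes was 2-fold apart either, with 8 higher in library 1 and a median log2 difference of -0.20. Of 9 cadherin and catenin genes 8 were higher in library 2, with a median log2 difference of 0.17, and Cdh2 alone was 2-fold apart (log2 difference 1.10). Among keratins with a mean of 20 or more, 2 of 8 type I genes were at least 2-fold higher in library 1 (Krt14 and Krt16) and 1 in library 2 (Krt13). The late differentiation genes of the list divided in the same way, 3 of 14 at least 2-fold higher in library 1 and Ly6d in library 2.

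A limit bears on all levels. The strand setting of the counting is not given in the sources used here, and 43.3% of the genes with a mean of 20 or more share exon bases with another annotated gene, so that the reads of such a pair may not be told apart. Among list members named above this holds for Csf1r, Krt10, Krt5, Krt7, Krt8, Krt76, Krt80, Tgm1, Ctnna1, Ctnnb1, Ctnnd1, Dsg2, Dsp, Cldn3, Itgb4, Plec, Lama3, Zeb1, Zeb2, Twist2, Grhl2, Elf3, Esrp1, Esrp2, Sox4, Unc5c, Rgma, Nrp1, Erbb2, Ereg, Nrg1, Fgfr1, Fgfr2, Notch1, Notch2, Nrarp, Wnt7b, Fzd6, Bmp4, Bmpr1a, Spry1, Cdkn1a, Top2a, Timp3, Serpinb2, Anxa2, Col4a1, Col4a2, Col5a1, Il1a, Cxcl16, Tapbp, Psmb8, Gapdh, Pkm, Fosl1, Junb, Axin2 and Notum, and among the others for Eef1a1, Spp1, Thbs1, Gm20721, Hist2h2bb, Klhdc7a, Ctla2a, Gm42532, P2ry12, Rmi2 and Myb.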

How the data were processed

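Total RNA of sorted cells was sequenced in 6 libraries, of which the 2 labelled empty vector were used. The authors deposited 1 table of values scaled and rounded to whole numbers that sum to about 20 M (M for 1e6) per library, treated as a score because they are not raw counts. Tools named in the submitters' processing notes are STAR, Picard and HTSeq, without versions, with the GRCm38 (mm10) build. Not given in the sources used here are the annotation, strand setting, duplicate handling and how values were scaled. Depth was estimated from the spacing of values up to 150, which were whole multiples of 1.97 and 2.29 in libraries 1 and 2 within 0.5 (100% of these values). A step near 2 leaves many whole numbers within that tolerance by chance, so the depth is approximate. Gene positions and exon lengths came from GENCODE M21, which held 49326 of 49671 identifiers. TPM, written here for a level per length, was computed from the deposited values over the union of exons, scaled to 1 M over nuclear protein-coding genes. Differences are log2(value + 5), library 2 minus library 1, for genes with a mean of at least 20. No statistical test was run, since 1 group of 2 libraries allows none. Scripts were tested on simulated data. Promoters came from RefSeq (GRCm38). Python 3.11.15 with pandas 2.3.3, numpy 2.4.6 and matplotlib 3.10.9 was used.

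The cells described and the 39 gene lists were chosen with earlier results of these data known, and 5 further lists were added after the values had been seen. Named were the 15 highest protein-coding genes other than ribosomal protein and mitochondrial genes, the 10 highest deposited values, per list a selection from its 3 highest members, its members at 0 and those at least 2-fold apart, and the 15 genes furthest apart in each direction at a mean of at least 100. Epcam, Cdh1, Krt14, Ntn1, Unc5b, Trp53 and Lgr5 were always named. A few genes that these rules select are not reported here. Further list members named for their role in the tissue, with Odc1, were chosen after their values were seen.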

Additional observations from a re-analysis of the deposited data

How the results depend on the processing

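Of the 803 genes at least 2-fold apart, 436 were apart with a pseudocount of 20 and 948 with 1. With a mean of at least 50 there were 480, with at least 100 there were 311 and with no filter 2467. At 1.5-fold the number was 2593 and at 4-fold 67. With median-of-ratios scaling it was 757, of which 72.9% were higher in library 2, against 76.1% as deposited. Chosen after seeing the data, the limit of 3 counting SDs left 574 genes, and protein-coding genes with no exon overlap 406. Genes higher in library 2 were the majority under each of these settings. The number of genes at a mean of 20 or more, 15176, was 15109 to 15311 when 1 library was left out, and 17069 or 12903 with a minimum of 10 or 50. The 100 highest genes held 17.1% of the total, 16.2% without genes annotated as rRNA, and 16.9 to 17.5% when 1 library was left out. Leaving out rRNA genes keeps Gm42418 and AY036118, which are annotated as lincRNA and share exon bases with the rRNA gene Rn18s-rs5. It also keeps the lincRNA Gm26917, which ends at position 39846341 of chromosome 17, just before Rn18s-rs5 (start 39846353). Of the list members 374 reached 10 TPM, 367 to 380 when 1 library was left out, 370 with the length of the longest transcript and, as an alternative chosen after seeing the data, 350 with levels scaled to 1 M over all genes. No paired analysis was possible because a single group of 2 libraries was described. Depth limits the low genes, for which the counting SD of the log2 difference (0.47 at a mean of 20 to 50) was about as large as the median difference without sign (0.43).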

Other observations

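Mitochondrial genes fell into blocks by position. The 13 protein-coding genes of the mitochondrial chromosome are made from shared long transcripts, and 7 of them stood far above the rest, led by mt-Co1 with 15019 and 19728 TPM, mt-Nd1 with 11865 and 11918 TPM, mt-Nd2 with 8141 and 8733 TPM and mt-Cytb with 7157 and 8482 TPM. The 6 adjoining genes from mt-Co2 (start 7013) to mt-Nd4l (end 10173), by GRCm38 positions, were far lower. In that stretch mt-Co2 had 49.2 and 45.5 TPM, mt-Atp8 30.6 and 38.1 TPM, mt-Atp6 27.9 and 34.3 TPM, mt-Co3 23 and 22 TPM, mt-Nd3 210 and 203 TPM and mt-Nd4l 138 and 137 TPM. The pattern was present in both libraries, and its source was not tested.

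The highest deposited values of any gene type belonged to Gm26917 (363966 and 280326), Rn18s-rs5 (244231 and 258190) and Gm42418 (166358 and 176453), and AY036118 had 98976 and 113933. Exons of Gm42418 and AY036118 overlap those of Rn18s-rs5, and Gm26917 ends just before Rn18s-rs5 on chromosome 17, without overlap. The nuclear RNA Malat1 had 58507 and 118499, a log2 difference of 1.02. The others in the first 10 by deposited value were mt-Co1 (96621 and 125409), Actb (106854 and 101190), Eef1a1 (78915 and 90030), Thbs1 (74400 and 92876) and Ahnak, a large scaffold protein (77523 and 79566).

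Many short RNA genes listed with values share exon bases with another gene, as do 43.3% of all genes with a mean of 20 or more. Of 222 genes annotated as miRNA with a mean of 20 or more, 190 do so, as do 115 of 183 snoRNA, 29 of 38 miscellaneous RNA, 9 of 26 snRNA and 4 of 9 scaRNA genes. The inactive X transcript Xist had deposited values of 18045 and 17647, and the Y genes Ddx3y, Eif2s3y, Kdm5d and Uty were listed at 0 in both libraries.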
